A study of Mus musculus with 6 samples.

Results

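The insulin and insulin-like growth factor (IGF) receptor signalling core was taken here as 10 mouse genes, matched by symbol among the 53379 genes of each count table. They are the receptors Insr and Igf1r, the adaptors Irs1 and Irs2, the phosphoinositide 3-kinase regulatory subunit Pik3r1, and the kinases Pdpk1, Akt1, Akt2, Gsk3a and Gsk3b. All 10 passed the filter on low counts, which left 16929 genes for testing. The question was which of these mRNAs were over- or under-represented in RNA recovered with an antibody against hnRNPK, relative to the total RNA of the lysate. The libraries came from Min6, a mouse insulinoma line used as a beta cell model. Both groups came from cells at passage 31 under glucolipotoxic conditions, 30 h in 25 mM glucose with 500 µM palmitic acid, so the series compares RNA fractions and holds no untreated cells. The 3 total RNA libraries were made from a 10% input of the lysate, and the 3 hnRNPK immunoprecipitation (IP) libraries from lysate with 200 µg of protein, washed at 350 mM KCl. Whether the 3 libraries of each fraction are separate cultures is not labelled, and p-values here reflect only library-to-library spread, possibly technical. No control-antibody IP was analysed here, and recovery through hnRNPK cannot be told apart from recovery on beads or antibody.

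Insulin and IGFs bind receptor tyrosine kinases that phosphorylate the Irs adaptors. The adaptors recruit phosphoinositide 3-kinase through its p85 regulatory subunit, the lipid product brings Akt to the membrane, and Pdpk1 phosphorylates Akt there. Active Akt phosphorylates and restrains both forms of glycogen synthase kinase 3. In beta cells this pathway, and Irs2 in particular, is known for its part in beta cell growth and survival. hnRNPK is an RNA-binding protein whose KH domains hold C-rich single-stranded RNA.

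Because the bait protein prefers C-rich RNA, the mRNAs were searched on the transcribed strand for C-rich tetramers, overlapping matches included. These were CCCC, the forms with another first base, TCCC or else ACCC, and the forms with another last base, CCCA or else CCCT. A match is a description of the sequence and not evidence of a binding site. At least 1 of them occurred in 99.96% of the longest coding transcripts of 13486 tested coding genes, so their presence alone separates nothing, and density is given instead. The 30-base window with the most tetramers is shown for the 3 members with the highest IP to total RNA ratio, Gsk3a, Gsk3b and Igf1r, and for the 2 that did not pass the test, Irs1 and Akt2. Where windows tied, overlapping ones included, the first is shown: 4 tied in Gsk3a, 10 in Gsk3b, 3 in Irs1 and 7 in Akt2. Capitals mark bases inside a tetramer, and sequences read 5′ to 3′ from GENCODE M21 transcripts (GRCm38).
Gsk3a: tctACCCCCTtggTCCCCTCCCCTCCCCCA
Gsk3b: atgttttttTCCCCCTCCCCCCCAtTCCCT
Igf1r: TCCCTTCCCCCCCCCCCCCCgcaACCCCCA
Irs1: TCCCCgccTCCCTCCCTcgTCCCCTCCCCT
Akt2: ttgtgtTCCCTTCCCTgTCCCCTcaTCCCA
The Gsk3a window lies in the 3′ UTR in exon 11 (chr7:25228576-25228605, minus strand), and holds 14 tetramers. At least as many were found in a window of 3.72% of tested coding transcripts. The Gsk3b window, in the 3′ UTR in exon 11 (chr16:38245342-38245371, plus strand), holds 12, and so does that of Irs1 in the 5′ UTR in exon 1 (chr1:82291285-82291314, minus strand). A window with 12 or more occurred in 8.98% of the transcripts. The Igf1r window, in the 3′ UTR in exon 21 (chr7:68229828-68229857, plus strand), had 18 tetramers, a number that 0.393% of the transcripts reached. The Akt2 window, in the 3′ UTR in exon 14 (chr7:27638232-27638261, plus strand), had 9, a number reached by 28.7% of the transcripts. The windows of the other enriched members had 11 tetramers in Irs2, 9 in Pik3r1, 8 in Insr, 7 in Pdpk1 and 6 in Akt1. A window with 6 or more occurred in 72% of the transcripts. These shares are over transcripts of all lengths, and a longer transcript offers more windows. A dense C-rich window was thus present in some but not all enriched members, and in Irs1, which did not pass.

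Total counts ranged from 38764925 to 52735957 per library. The 15 beta cell markers checked, among them Pdx1, Mafa and Slc2a2, all had reads in the files. Their summed level, in CPM (counts scaled to the library total), was 7717 to 8942 in IP libraries and 28094 to 38215 in total RNA. By gene, 9 markers were enriched and 6 depleted, and abundant markers weigh most in the sum. Ins2, among the 6 depleted, had 45571 to 96718 reads per IP library and 465492 to 680529 per total RNA library. Of 12 markers of exocrine and duct cells 8 were at 0 in every library, and the summed level of the list was at most 1.03 CPM. The 12 stromal, endothelial and immune markers summed to 5.75 to 8.55 CPM in IP libraries and 3.72 to 5.25 in total RNA, and those of other islet cells to 500 to 765 and 2531 to 3720. The part of these cells in the results was not tested.

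Of the 10 members, 8 were enriched in the IP and 2, Irs1 and Akt2, did not pass (p under 0.05 in the edgeR quasi-likelihood test, adjusted by Benjamini-Hochberg over all tested genes, as for every edgeR adjusted p given here). Among all tested genes 28.9% were enriched and 33.6% depleted. Depleted members numbered 0 with edgeR and 0 at its unadjusted p under 0.05, where at least the same 33.6% of tested genes were depleted. They numbered 0 with DESeq2 (33.8% of tested genes) and 0 with limma-voom (36.1%). The median log2 fold change, IP minus total RNA, was 1.13 over the members, with a range of 0.23 to 2.52, and −0.07 over all tested genes. In the 8 enriched members all IP libraries lay above all total RNA libraries, which was so for 32.2% of tested genes. A log2 fold change of at least 1 was called for 5 members (19.6% of tested genes) and one of at least 2 for Gsk3a and Gsk3b (6.09%). Enrichment is relative to the other RNA of each library. With library totals in place of TMM composition factors the median of all tested genes moved by −0.43 on the log2 scale, 6 members stayed enriched (20.4% of tested genes) and the calls of Pik3r1 and Akt1 ended. Under an offset for gene length 6 members were enriched (32.7%), without Insr and Pik3r1. Without IP library 2 the number was 9, Akt2 included (29.3%).

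**Figure D1:**
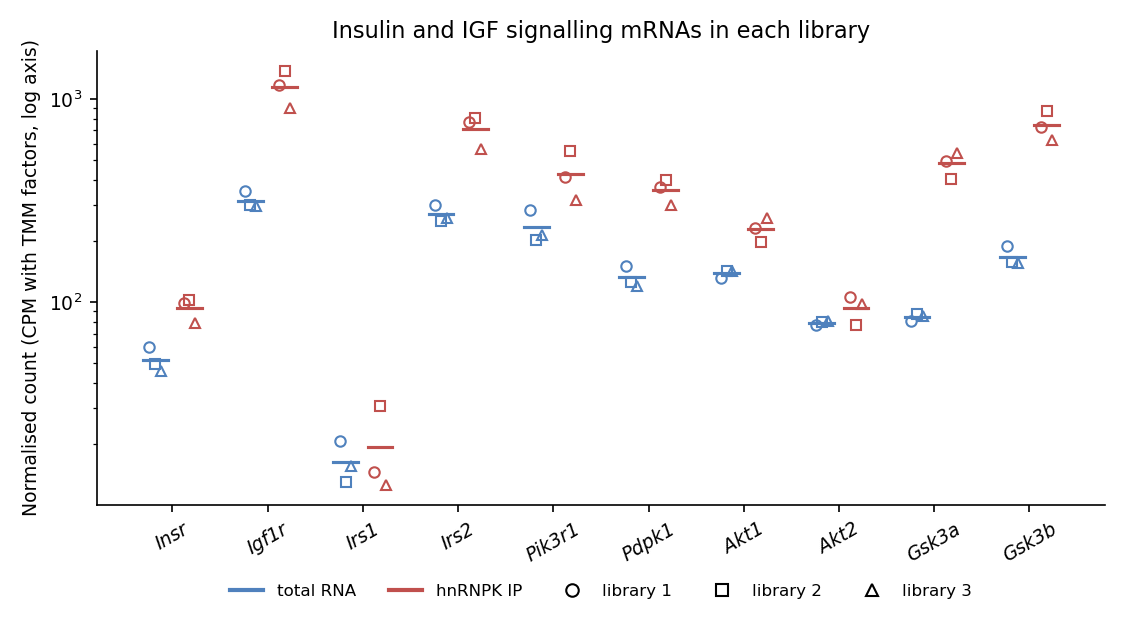
Normalised counts of each member in each library (CPM with TMM factors, log axis), with total RNA in blue, hnRNPK IP in red, symbols for library number and bars for group means. The groups do not overlap for 8 members, whereas those of Irs1 and Akt2 do.

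The members differed widely in abundance before any IP. Compared per length, as CPM per kb of merged exons in total RNA, Irs2 was the most abundant with 42.8 ± 4.27 (SD, n = 3), followed by Akt1 with 33.8 ± 1.40 and Gsk3a with 29.0 ± 1.20. These 3 did not overlap with each other, and Gsk3a overlapped with the next, Pik3r1, at 23.1 ± 4.33. Igf1r (18.8 ± 1.82 CPM per kb), which overlapped with Pik3r1, and Gsk3b (17 ± 1.92) also overlapped, as did Pdpk1 (12.1 ± 1.5) and Akt2 (11.1 ± 0.268). Insr had 3.79 ± 0.535 CPM per kb and Irs1 1.80 ± 0.426, the lowest of the 10. By this measure Irs2 stood at the 93.7th percentile of tested coding genes in total RNA, and Irs1 at the 27.3rd. In the IP the order began with Gsk3a (166 ± 24.3 CPM per kb, n = 3), Irs2 (113 ± 19.7) and Gsk3b (75.3 ± 12.5), and it ended with the same 3 genes, Akt2, Insr and Irs1.

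Both receptor mRNAs were more abundant in the IP. Insr encodes the insulin receptor (ENSMUSG00000005534.10, GRCm38 chromosome 8, 3122061 to 3279617, minus strand). It had 98.8, 103 and 78.7 CPM in IP libraries 1, 2 and 3 and 60.2, 49.9 and 46.0 in total RNA libraries 1, 2 and 3. The groups do not overlap, and IP library 3 was the lowest of its group. The log2 fold change of Insr was 0.84 ± 0.14 (SE), 1.79-fold, with an edgeR adjusted p = 0.00121. An offset for gene length took it to 0.22 and ended the call (edgeR adjusted p = 0.0757, with 1.08e-07 to 0.0757 over 14 alternatives), and with library totals alone 0.41.

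Igf1r encodes the IGF1 receptor, a tyrosine kinase of the same family (ENSMUSG00000005533.10, chromosome 7, 67952827 to 68233668, plus strand). Its level was 1171, 1364 and 902 CPM in the IP libraries and 351, 299 and 296 CPM in total RNA. The lowest IP library held over 2 times the CPM of the highest total RNA library, and the log2 fold change was 1.86 ± 0.16 (3.63-fold, edgeR adjusted p = 2.49e-05). Igf1r kept its call in all 14 alternatives, from 1.12 with the offset for gene length to 1.98 without total RNA library 1.

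The adaptors Irs1 and Irs2, which link the receptors to phosphoinositide 3-kinase, gave different results. Irs2 (ENSMUSG00000038894.7, chromosome 8, 10984681 to 11008458, minus strand) had 766, 801 and 570 CPM in the IP libraries and 302, 252 and 259 CPM in total RNA. The groups were well apart, with a log2 fold change of 1.39 ± 0.14 (2.63-fold, edgeR adjusted p = 7.27e-05) and a range of 0.96 to 1.52 over the alternatives, all called. Irs1 (ENSMUSG00000055980.2, chromosome 1, 82233101 to 82291416, minus strand) had 14.5, 30.9 and 12.7 CPM in the IP libraries and 20.7, 13 and 15.6 CPM in total RNA. IP library 2 alone was above the total RNA libraries, and the others lay within or below their range. The log2 fold change of Irs1, 0.24 ± 0.35, did not pass (edgeR adjusted p = 0.585), and without IP library 2 it was −0.28, also not called. Exons of Irs1 overlap by 2822 bases with the predicted gene Gm9747 on the opposite strand, which was at 0 in every library. The sources used here do not give how reads from shared bases were assigned.

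Downstream of the adaptors, Pik3r1 and Pdpk1 were both enriched. Pik3r1 encodes the p85 alpha subunit that docks on phosphorylated Irs proteins (ENSMUSG00000041417.15, chromosome 13, 101680563 to 101768217, minus strand). It had 412, 555 and 316 CPM in the IP libraries and 283, 202 and 215 CPM in total RNA. IP library 3 and total RNA library 1 came close to each other without overlap. The log2 fold change of Pik3r1 was 0.88 ± 0.21 (1.83-fold, edgeR adjusted p = 0.00781), and it lost its call under library totals (0.44, edgeR adjusted p = 0.111) and under the length offset (0.42, edgeR adjusted p = 0.0546), within 5.36e-05 to 0.111 over 14 alternatives.

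Pdpk1, the kinase of the Akt activation loop (ENSMUSG00000024122.16, chromosome 17, 24073680 to 24150924, minus strand), had 367, 400 and 300.0 CPM in the IP libraries and 151, 126 and 120.0 CPM in total RNA. Every IP library was near or above 2 times the total RNA libraries. Pdpk1 had a log2 fold change of 1.43 ± 0.14 (2.69-fold, edgeR adjusted p = 4.94e-05), with a range of 0.92 to 1.57 over the alternatives, all called.

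The Akt serine/threonine kinases carry the signal to metabolism, growth and survival. Akt1 (ENSMUSG00000001729.14, chromosome 12, 112653821 to 112674884, minus strand) had 231, 198 and 258 CPM in the IP libraries and 132, 142 and 142 CPM in total RNA. The groups do not overlap, and IP library 2, the highest for 7 other members, was the lowest here. Enrichment of Akt1 came to a log2 fold change of 0.72 ± 0.11 (1.65-fold, edgeR adjusted p = 0.000667). It was 0.29 and not called with library totals alone (edgeR adjusted p = 0.0568, with 2.33e-08 to 0.0568 over 14 alternatives), and 0.90 with the offset for gene length.

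Akt2, the isoform best known for insulin-stimulated glucose uptake (ENSMUSG00000004056.15, chromosome 7, 27591552 to 27640826, plus strand), had 106, 77.0 and 97.5 CPM in the IP libraries and 77.3, 79.8 and 81 CPM in total RNA. IP library 2 lay below all total RNA libraries and the other IP libraries above them. The log2 fold change of Akt2 was 0.23 ± 0.13 and did not pass (edgeR adjusted p = 0.140). It was 0.36 and called without IP library 2 (edgeR adjusted p = 0.00603, with 0.00603 to 0.939 over 14 alternatives), and −0.20 with library totals alone. A processed pseudogene, Akt2-ps, held 29.1% to 32.2% of the reads of Akt2 and Akt2-ps together in each library, and how reads were split between gene and pseudogene is uncertain. With the reads of both summed, an alternative chosen after seeing the data, the log2 fold change was 0.25 ± 0.12, also not called.

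The genes for glycogen synthase kinase 3, which Akt inhibits, had the highest ratios of the 10. Gsk3a (ENSMUSG00000057177.12, chromosome 7, 25228258 to 25237851, minus strand) had 495, 405 and 544 CPM in the IP libraries and 80.3, 87.1 and 85.2 CPM in total RNA. Each IP library was more than 4 times the highest total RNA library. For Gsk3a the log2 fold change was 2.52 ± 0.12 (5.72-fold, edgeR adjusted p = 2.49e-06), at the 97.8th percentile of all tested genes. It stayed called in all 14 alternatives, from 2.08 with library totals alone to 2.97 with the offset for gene length. Exons of Gsk3a overlap by 820 bases with the antisense gene 9130221H12Rik, which had 1326 reads over the IP libraries and 787 over total RNA, a log2 fold change of 1.40. Gsk3a itself had 4525 to 21815 reads per library. Reads of the 2 strands cannot be told apart without a known strand setting, and the part of this overlap in the Gsk3a counts was not tested.

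Gsk3b (ENSMUSG00000022812.13, chromosome 16, 38089001 to 38246084, plus strand) had 724, 871 and 627 CPM in the IP libraries and 189, 157 and 156 CPM in total RNA. The groups were far apart here too. Gsk3b had a log2 fold change of 2.15 ± 0.14 (4.43-fold, edgeR adjusted p = 8.17e-06), with a range of 1.71 to 2.28 over the alternatives, all called.

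**Figure D2:**
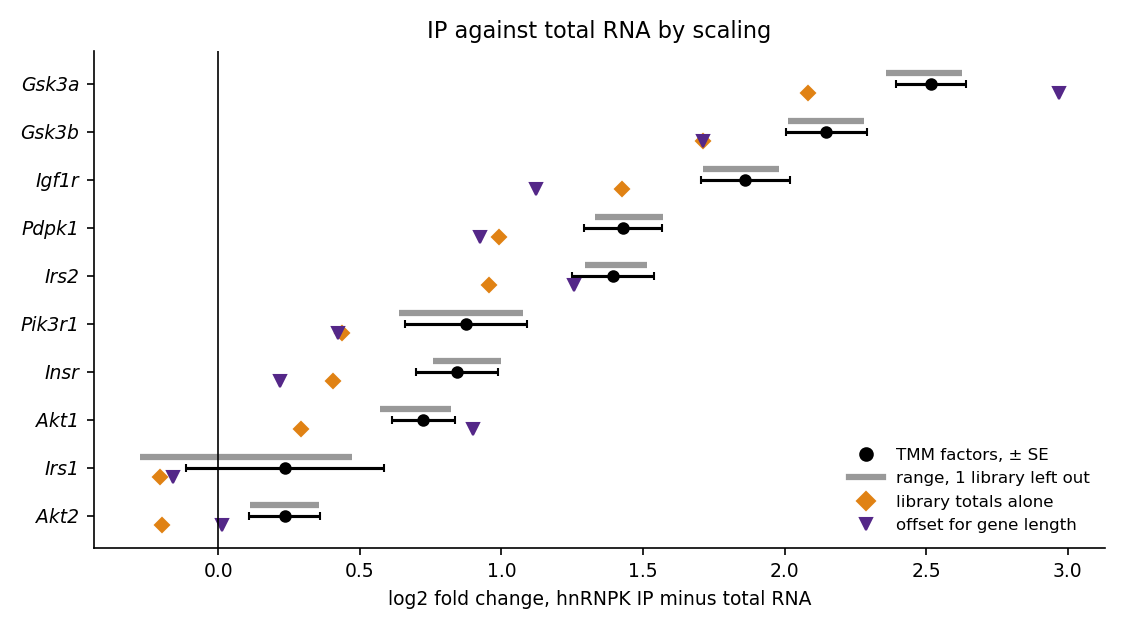
Log2 fold change of each member, hnRNPK IP minus total RNA: black points with SE for TMM factors, grey bars for the range when 1 library is left out, orange diamonds for library totals alone and purple triangles for the offset for gene length. Irs1 and Akt2 are below 0 with library totals alone, whereas Gsk3a is above 2 in every setting drawn.

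Ratios between related members within a library do not depend on the scaling of libraries. The reads of Insr divided by those of Igf1r were 0.0844, 0.0752 and 0.0873 in the IP libraries and 0.172, 0.167 and 0.155 in total RNA. The mean log2 ratio was lower by 1.00 in the IP, so that Igf1r was the more enriched receptor mRNA, and the groups did not overlap. The ratio of Irs1 to Irs2 was 0.0190, 0.0386 and 0.0223 in the IP and 0.0685, 0.0516 and 0.0604 in total RNA. Its mean log2 value differed by −1.24 without overlap, although IP library 2 lay nearer to total RNA than the other IP libraries.

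The ratio of Akt1 to Akt2 was 2.19, 2.57 and 2.65 in the IP libraries and 1.71, 1.78 and 1.75 in total RNA. Akt1 gained on Akt2 by 0.49 on the log2 scale, and by 0.47 with the reads of Akt2-ps added to Akt2. Gsk3a to Gsk3b was 0.683, 0.465 and 0.868 in the IP libraries and 0.425, 0.555 and 0.548 in total RNA. This ratio overlapped between the groups, with IP library 2 inside the range of total RNA and a difference of 0.37, which was 0.16 without IP library 3 and 0.61 without IP library 2. The length offset, which differs between genes, set the fold changes further apart, at 2.97 for Gsk3a and 1.71 for Gsk3b. A two-sided exact permutation test of IP against total RNA gave p = 0.1 for each of the first 3 pairs, the smallest that 3 libraries against 3 allow, and p = 0.3 for Gsk3a to Gsk3b. Adjusted over the 4 pairs by Benjamini-Hochberg these exact values were p = 0.133 and p = 0.3, so no pair could pass 0.05. All 4 differences kept their sign when any 1 library was left out.

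**Figure D3:**
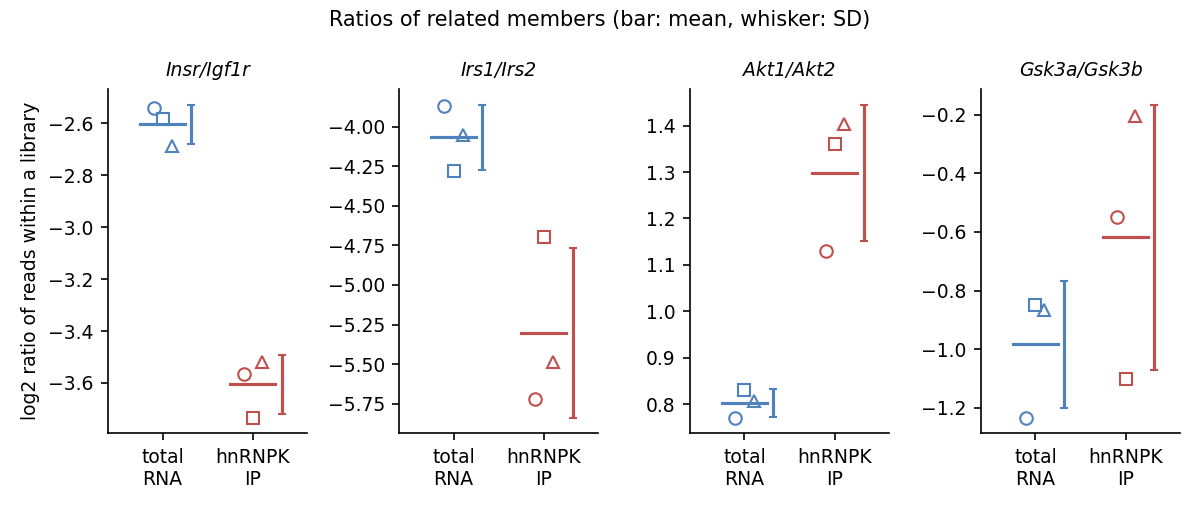
Log2 ratio of the reads of related members within each library for total RNA (blue) and hnRNPK IP (red), with symbols for library number, bars for the mean and whiskers for the SD, on a separate axis range for each pair. Insr/Igf1r, Irs1/Irs2 and Akt1/Akt2 do not overlap between the groups, and Gsk3a/Gsk3b does.

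The order of libraries within a group differed between longer and shorter members. For the 7 members whose longest coding transcript exceeds 6000 bases (Insr, Igf1r, Irs1, Irs2, Pik3r1, Pdpk1 and Gsk3b), IP library 2 was the highest and IP library 3 the lowest of the IP, and total RNA library 1 was the highest of its group. For the 3 others, Akt1, Akt2 and Gsk3a, IP library 2 was the lowest IP library and total RNA library 1 the lowest of total RNA. The log2 ratio of IP library 2 to 3 was 0.38 to 1.29 in the 7 longer mRNAs and −0.43 to −0.34 in the 3 shorter ones. Across 13486 tested coding genes, which share the libraries, Spearman's rho between transcript length and the log2 ratio of IP library 2 to 3 was 0.42. For total RNA library 1 against the mean of the others rho was 0.57. Among the 10 members the latter ratio had rho 0.62 with length, −0.72 with GC content and −0.95 with 3′ UTR tetramer density, and that of IP library 2 to 3 had 0.64, −0.54 and −0.67. Across all tested coding genes the ratio of total RNA library 1 had only −0.30 with GC content and −0.18 with 3′ UTR tetramer density. That of IP library 2 to 3 had −0.25 and −0.15. The part of RNA quality in this order was not tested.

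Length also moved with the comparison between the groups. Across the same genes rho between transcript length and the log2 fold change was 0.50, and the median log2 fold change ran from −1.52 for transcripts up to 2000 bases to 0.96 for those over 8000. In the class of 6000 to 8000 bases 58% of genes were enriched and 11.8% depleted, and over 8000 bases 61.8% and 7.48%, against 28.9% and 33.6% of all tested genes. Of the members 8 were longer than the median coding transcript of 3202 bases. Set beside genes of their own length class, 7 members lay above the class median and 5 above its upper quartile. Gsk3a, with 2260 bases, stood at the 98.7th percentile of the 5418 genes of 2000 to 4000 bases, whose median was −0.24. Gsk3b (8303 bases) and Igf1r (11409 bases) stood at percentiles 90.1 and 81 of the 802 genes over 8000 bases. Akt1 (2690 bases), Pdpk1 (7161 bases) and Irs2 (6323 bases) lay at percentiles 75.3, 75.4 and 74.3 of their classes and Pik3r1 (7113 bases) at 54.3. Insr (9355 bases), Akt2 (4544 bases) and Irs1 (9144 bases) were below the median of theirs, at percentiles 46.5, 44.5 and 27.1.

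The C-rich tetramers were unevenly spread over the members. Gsk3a had 59.3 per kb of its longest coding transcript, at the 99.0th percentile of tested coding genes, whose median was 23.9. Its 3′ UTR of 596 bases, from which the window above comes, had 119 per kb, at the 99.7th percentile. Irs2 followed with 40.6 per kb, most densely in its coding sequence (51.7 per kb), and Irs1, although not enriched, had 32.2. Akt2 (31.5 per kb), Akt1 (30.9) and Igf1r (29.5) were also above the median, and Insr was near it with 24.2. Gsk3b (21.9 per kb), Pdpk1 (20.2) and Pik3r1 (15.9) were below the median and were enriched. Over the 10 members rho between this density and the log2 fold change was −0.067, against 0.29 over 13485 tested coding genes. For the number of tetramers in the best window, the measure shown by the sequences above, it was 0.51 over the members and 0.49 over all. A longer transcript offers more windows, and length itself had rho 0.50 over all and 0.030 over the members. The part of length in the window measure was not tested. These values are descriptions.

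**Figure D4:**
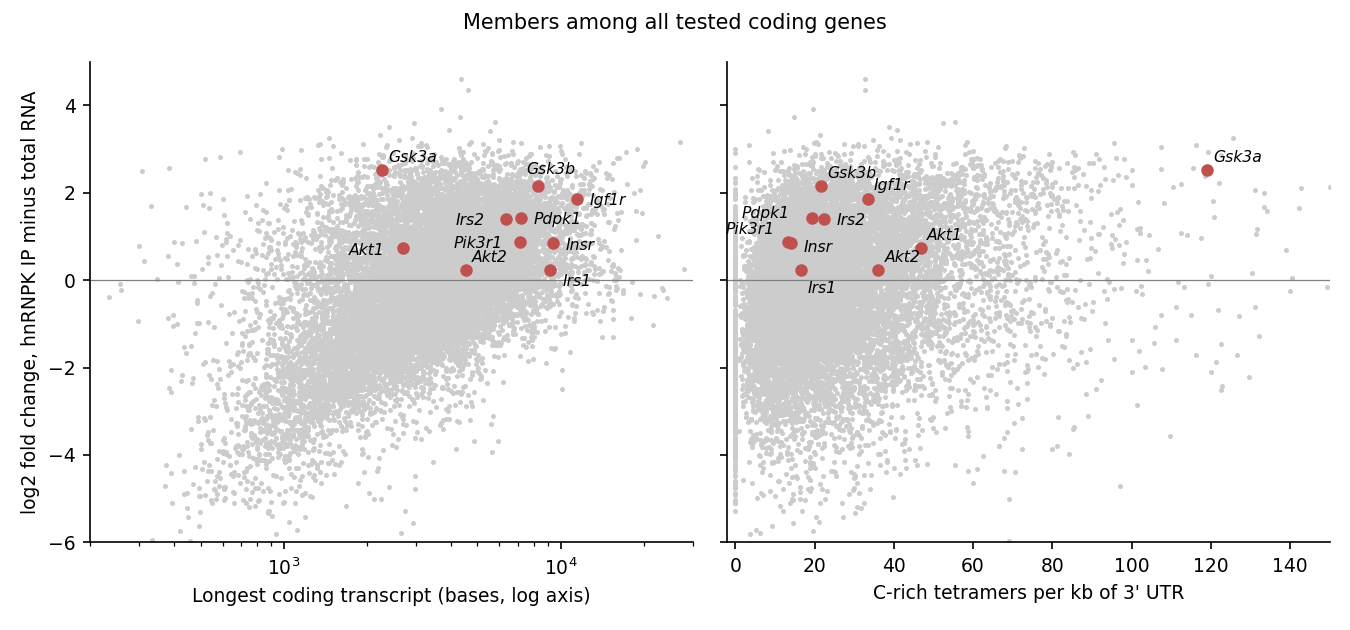
Log2 fold change (hnRNPK IP minus total RNA) of tested coding genes (grey) and the members (red) against the length of the longest coding transcript (left, log axis, 13486 genes) and against C-rich tetramers per kb of 3′ UTR (right, 13232 genes with a 3′ UTR long enough to search). Gsk3a is the shortest member and the one with the densest 3′ UTR, and 32 genes outside the vertical range, 6 outside the length range and 7 beyond the right edge are not drawn.

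The rest of the pathway was described with 8 lists of 134 other genes, of which 125 could be tested. Of these, 59 were enriched and 41 depleted (47.2% and 32.8%, against 28.9% and 33.6% of all tested genes), with a median log2 fold change of 0.28. With library totals alone that median was −0.15, while the median of all tested genes was −0.51. Of the ligands and their binding proteins 3 were enriched and 4 depleted of 7 tested. Igf2, the fetal growth factor that signals through Igf1r, had 3412 ± 926 CPM in IP libraries and 385 ± 26.2 in total RNA (SD, n = 3 each), the highest log2 fold change of all lists at 3.15 ± 0.19. Igfbp4, which binds IGFs outside the cell, was enriched too, at 1.20 ± 0.18. Ins2, a preproinsulin gene, was depleted at −2.42 ± 0.25, and so was Igfbp7 at −1.62 ± 0.26. The length offset took these to −1.35 and −0.53, both still called. Igf1 had 10 reads over the IP libraries and 2 over total RNA, and was not tested.

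Of 8 receptors and related genes 3 were enriched and 0 depleted with edgeR, where 33.6% of all tested genes were depleted. Depleted genes of this list also numbered 0 at unadjusted p under 0.05 (at least 33.6%), with DESeq2 (33.8%) and with limma-voom (36.1%). Library totals alone gave 1 depleted gene there (43% of tested genes), the length offset 2 (31%), and the fit without IP library 2 gave 1 (35.1%). Furin, a protease that cleaves the receptor precursors, was enriched at 1.69 ± 0.15. Igf2r, the receptor that clears IGF2, was at 0.12 ± 0.13 and did not pass, and the length offset gave −0.27 with a depleted call. The lowest of this list, the docking protein gene Dok1 (−1.26 ± 0.87) and Enpp1 (−0.32 ± 0.30), did not pass either, and Dok1 was called at −0.70 without IP library 2, in which it had 3 reads. Insrr, an orphan relative of the insulin receptor, was enriched at 0.28 ± 0.09, and lost this call in 8 of 14 alternatives. Among adaptors and inhibitors of the receptors 9 were enriched and 5 depleted of 19. The ubiquitin ligases Cblb (2.42 ± 0.23) and Cbl (1.66 ± 0.14) were highest, and the phosphatase Ptpn2 (−1.24 ± 0.19) and the adaptor Nck2 (−1.17 ± 0.17) lowest.

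Phosphoinositide 3-kinase genes other than Pik3r1 were mixed: 4 of 10 were enriched and 5 depleted. Those enriched numbered 2 under library totals (20.4% of tested genes) and 2 under the length offset (32.7%). The catalytic subunit gene Pik3ca was at 0.32 ± 0.13 and did not pass, but was called enriched in 4 of 14 alternatives (RLE size factors, DESeq2, halved counts and, at 0.47, without total RNA library 1) and was below 0 under library totals and the length offset. Of the others, Pik3c2b of class II was enriched (1.20 ± 0.22), and Pik3c3 (−1.55 ± 0.18) and its partner Pik3r4 (−0.99 ± 0.30) of class III were depleted. Pik3r4 did not pass when a total RNA library was left out, whichever it was, with −0.97 to −0.93. Pik3cg, at 2.02 ± 0.75, had 23 to 108 reads per IP library and lost its call in 9 of 14 alternatives. Depleted genes of this list numbered 2 when total RNA library 1, 2 or 3 was left out (28%, 26.7% and 26.5% of tested genes) and 3 without IP library 2 (35.1%). Of 17 phosphatases and Akt regulators 11 were enriched and 6 depleted, and 5 were enriched with library totals alone (20.4% of tested genes). Inpp4b, a lipid phosphatase, was enriched at 1.86 ± 0.12, and Ppp2cb (−1.97 ± 0.10), a catalytic subunit of protein phosphatase 2A, and the kinase cochaperone Cdc37 (−1.10 ± 0.11) were depleted.

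Among genes of the mTOR complexes and their targets 6 were enriched and 9 depleted of 21. Eif4ebp2 (2.64 ± 0.10), a repressor of cap-dependent translation, and Deptor (2.61 ± 0.18), an mTOR inhibitor, were highest, and the mTOR activator Rheb (−2.41 ± 0.20) was lowest. Rps6, the ribosomal S6 protein, was depleted at −1.43 ± 0.28, a value that the offset for gene length took to −0.38 without a call. Its pseudogene Rps6-ps4 had 368 ± 62.0 CPM in total RNA beside 7.45 ± 0.04 for Rps6, and how shared reads were assigned is not known. Mtor (−0.55 ± 0.17) and Tsc2 (−0.31 ± 0.11) were called depleted, and neither passed when any total RNA library was left out, where they ranged from −0.56 to −0.46 and from −0.34 to −0.18. Tsc2 also lost its call with RLE size factors, DESeq2, halved counts and without IP library 2 or 3, so in 8 of 14 alternatives. Of 23 substrates of Akt and Gsk3 12 were enriched and 5 depleted, and 8 were depleted with library totals alone, where 43% of all tested genes were. The forkhead factor Foxo1 (1.65 ± 0.10), which Akt excludes from the nucleus, Nfatc1 (2.21 ± 0.13) and the cell cycle inhibitor Cdkn1a (2.15 ± 0.15) were enriched, and the cell death gene Bad (−2.35 ± 0.58) and Eif2b5 (−2.08 ± 0.24), a translation factor that Gsk3 phosphorylates, were depleted. Bad had 45, 51 and 262 reads in the IP libraries, and its value without IP library 3 was −3.55. In the Ras and ERK branch 11 of 20 were enriched and 7 depleted. The exchange factor Sos1 (2.39 ± 0.15) and the kinase Rps6ka3 (2.18 ± 0.11) stood against Hras (−2.66 ± 0.16) and Map2k2 (−1.63 ± 0.13). Hnrnpk mRNA itself was depleted, at −0.42 ± 0.11, and lost the call without total RNA library 2 (−0.35) or 3 (−0.37). Other values of called genes moved by over 1.5 times and kept their calls in the settings named here. The length offset took Cbl to 1.09, Ptpn2 to −0.80, Ppp2cb to −0.94, Mtor to −0.99 and Tsc2 to −0.73. Library totals took Igfbp4 to 0.76, Pik3c2b to 0.77, Hnrnpk to −0.85, Mtor to −0.98 and Tsc2 to −0.75.

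**Figure D5:**
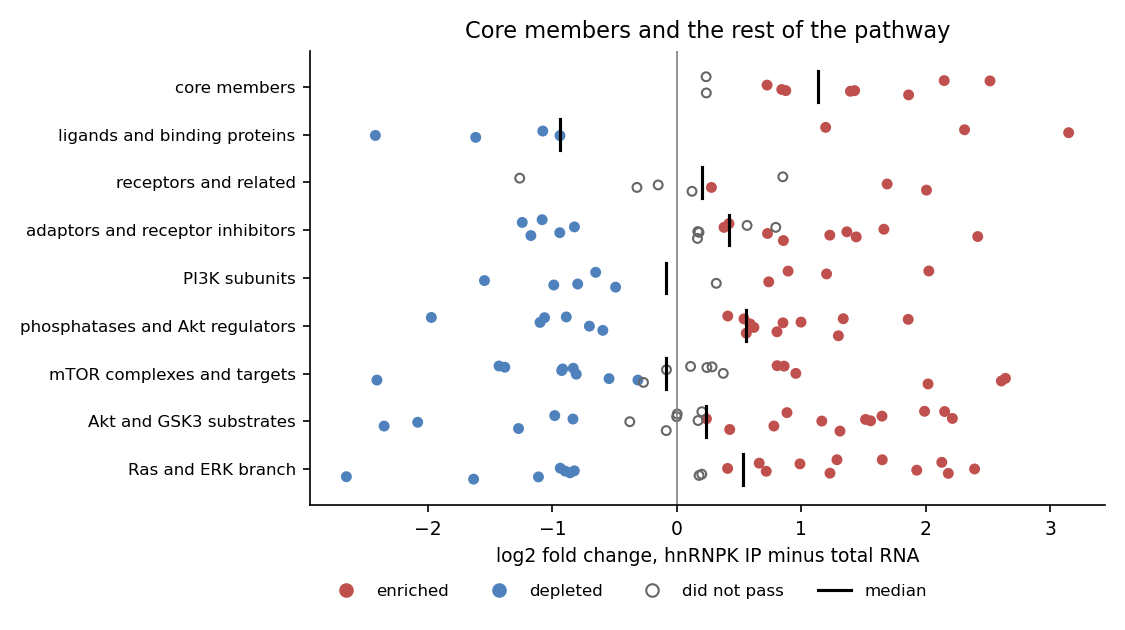
Log2 fold change (hnRNPK IP minus total RNA) of the 10 core members and of the tested genes of 8 pathway lists, filled where enriched (red) or depleted (blue), open where the test was not passed, with a bar at each median. No core member lies below 0, while each list below it has genes on both sides.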

How the data were processed

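For each library the authors deposited 1 table of raw read counts by gene, in whole numbers and not normalized. Per the submitters' processing notes, TopHat2, featureCounts and mm10 were used. Tool versions, strand setting, annotation release and the handling of multiply aligned reads are not given in the sources. GENCODE M21 (GRCm38, the build of mm10) matched 53274 of the 53379 genes and supplied symbols, coordinates, lengths and transcripts.

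The test was that of edgeR 4.0.16 (R 4.3.3): TMM factors, filterByExpr (minimum count 10, minimum total 15), glmQLFit and glmQLFTest on the group alone, and Benjamini-Hochberg adjustment over all 16929 tested genes. Fold changes are IP minus total RNA, ± SE. Member CPM use TMM factors; the marker sums do not. Among counts of 1 to 20, 58.6% to 68.7% were even. Whether mates were counted singly is not stated, so halved counts were tried. Other alternatives were library totals, RLE factors, DESeq2 1.42.0, limma-voom (limma 3.58.1), no filter, an offset for gene length (loess, span 0.3), the replicate block and leaving out each library. Paralog ratios had 0.5 added to each count. The longest coding transcript of each gene was searched for C-rich tetramers, in regions of at least 50 bases. The fit was tested on simulated data.

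The members and lists were chosen with earlier results of these data known. Named beside the members were up to 2 highest and 2 lowest genes of each list with at least 1 CPM on average, and Hnrnpk, Insrr, Igf2r, Igf1, Igf2, Foxo1, Pik3ca, Mtor and Tsc2 in any case. Some genes that this rule names are not reported here. No 2 libraries of a group agreed within sampling noise (chi-square per degree of freedom 6.08 to 113).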

Additional observations from a re-analysis of the deposited data

How the results depend on the processing

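Igf1r, Irs2, Pdpk1, Gsk3a and Gsk3b kept direction and call in all 14 alternatives fitted across genes. Insr fell to 0.22 with the offset for gene length and Pik3r1 to 0.42, both without a call. With library totals alone Pik3r1 was 0.44 and Akt1 0.29, without a call, and Irs1 and Akt2 turned to −0.20 and −0.20, not called before or after. Irs1 was also reversed with the offset for gene length, at −0.16. Leaving out 1 library at a time gave −0.28 to 0.47 for Irs1 and 0.11 to 0.36 for Akt2, which was called at 0.36 without IP library 2. Medians that changed sign with library totals alone were those of receptors (−0.24), adaptors (−0.017), Akt and GSK3 substrates (−0.20) and all lists (−0.15), and with the offset for gene length those of ligands (0.068) and receptors (−0.038). The median of the mTOR list, −0.084, rose above 0 without IP library 1 (0.019), IP library 3 (0.055) or total RNA library 1 (0.088). It fell to −0.52 with library totals alone and to −0.31 with the length offset or without IP library 2. With limma-voom or the replicate block it was −0.28. Insrr (−0.16), Igf2r (−0.32) and Pik3ca (−0.12) reversed with library totals alone, and Igf2r (−0.27) and Pik3ca (−0.064) with the offset. The cause was not tested. Same-numbered libraries did not deviate together (Pearson's r across genes 0.00087, −0.071 and 0.12 for numbers 1, 2 and 3), so the number was not taken as a pairing. Whether they share a lysate is not labelled. With the replicate block the member counts were 8 enriched and 0 depleted, as without it, and all tested genes gave 4384 enriched and 5364 depleted. No IP library correlated best with the total RNA library of its own number. IP library 1 had its highest r with total RNA library 3 (0.022) and IP library 2 with total RNA library 1 (0.14). For IP library 3 it was total RNA library 2 (0.1221, against 0.12 with its own number). Irs1, with 492 to 1286 reads per library, is the least precisely measured member.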
